A study of Rattus norvegicus with 3 samples.

Results

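The cell cycle and DNA replication genes were followed on 3 arrays, 1 from each of 3 oral soft tissues of rats. The set was a list of 50 gene symbols covering replication, cyclins and their kinases, mitosis and the inhibitors of the kinases. Members were found by symbol in the probe-set annotation, where a probe set is a group of short probes read together, and the brightest probe set with exactly 1 symbol stood for each gene. This gave 47 of the 50 genes, out of 14217 genes measured in all. No probe set carried the name of Cdc6 or Tpx2. Rrm2 had only 2 probe sets that also carry the name of its copy Rrm2l1, so it was left out.

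All animals were male wild-type Sprague-Dawley rats, 9 weeks old at harvest. Peri-implant connective tissue (PICT) lay around a titanium alloy implant set at once into the socket of an upper first molar extracted at 5 weeks of age, and was taken 4 weeks later. Oral mucosal connective tissue (OMCT) came from the same site 4 weeks after extraction with no implant named in its protocol, and periodontal connective tissue (PCT) from around the molar of animals with no surgery named in the labels. Each tissue was cut out by laser microdissection. The sources used here do not say how many animals each array holds. With 1 array per tissue there is no replicate check, so no test between tissues was made and the number of arrays limits the precision.

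Cells that divide pass from G1, the growth phase, through S phase, in which DNA is copied, to G2 and mitosis. D-type cyclins with Cdk4 and Cdk6 release E2F transcription factors, which switch on the genes of DNA copying, among them the Mcm2 to Mcm7 helicase. A later wave of transcription, driven in part by Foxm1, supplies the kinases, motors and checkpoint proteins of mitosis. In oral mucosa most dividing cells sit in and just above the basal layer of the epithelium, while fibroblasts and macrophages divide during repair.

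In RefSeq promoters of assembly GRCr8, 36 of the 47 measured members had an entry, and the 250 bases before the annotated start were searched for 3 motifs. Searched on both strands, the CHR letters TTTGAA or TTTAAA, a core named for cell cycle homology regions, were in 15 of 18 mitotic members (83.3%), 1 of 6 replication members (16.7%) and 17.9% of the 11733 promoters of genes measured on the arrays. The E2F letters TTTCCCGC, TTTGGCGC, TTTCGCGC or TTTGCCGC were in 4 of 6 replication members (66.7%), 1 of 18 mitotic members (5.56%) and 2.94% of the 11733. CCAAT was in 14 of 18 mitotic members (77.8%), 5 of 6 replication members (83.3%) and 35.1% of the 11733, so its share was alike in both groups. Among all 33469 promoters of the table the shares were 25.4% for CHR, 1.73% for E2F and 34.0% for CCAAT. A match is a description of the letters and not a bound site.

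Promoters of 4 members are shown because these genes passed 2-fold between tissues and lie on either side of the division described next. They run 5′ to 3′ along the gene up to the base before the start. Capitals mark every CHR, CCAAT and E2F match on either strand. Cdk1 is the single mitotic member with E2F letters, and Mcm5 and Mcm6 hold CCAAT letters too. Matches on opposite strands overlap in Mcm5 and Mcm6. Cdk1 is at chr20:19265043-19265292 on the plus strand, Plk1 at chr1:186147408-186147657 on the plus strand, Mcm5 at chr19:13488563-13488812 on the plus strand and Mcm6 at chr13:42404353-42404602 on the minus strand.
Cdk1: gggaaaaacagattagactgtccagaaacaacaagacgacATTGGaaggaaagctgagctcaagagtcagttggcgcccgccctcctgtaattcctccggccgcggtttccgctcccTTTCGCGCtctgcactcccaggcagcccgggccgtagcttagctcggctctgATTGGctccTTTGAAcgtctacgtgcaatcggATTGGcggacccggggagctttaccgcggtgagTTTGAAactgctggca
Plk1: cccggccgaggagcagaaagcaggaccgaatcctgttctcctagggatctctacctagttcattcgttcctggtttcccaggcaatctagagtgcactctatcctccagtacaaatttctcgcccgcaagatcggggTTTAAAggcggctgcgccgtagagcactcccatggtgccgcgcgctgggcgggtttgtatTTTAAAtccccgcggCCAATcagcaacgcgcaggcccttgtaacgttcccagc
Mcm5: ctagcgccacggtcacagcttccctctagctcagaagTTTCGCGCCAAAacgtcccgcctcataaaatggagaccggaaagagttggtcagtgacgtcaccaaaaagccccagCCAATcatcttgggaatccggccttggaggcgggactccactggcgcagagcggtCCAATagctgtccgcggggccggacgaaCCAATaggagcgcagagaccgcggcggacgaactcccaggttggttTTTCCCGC
Mcm6: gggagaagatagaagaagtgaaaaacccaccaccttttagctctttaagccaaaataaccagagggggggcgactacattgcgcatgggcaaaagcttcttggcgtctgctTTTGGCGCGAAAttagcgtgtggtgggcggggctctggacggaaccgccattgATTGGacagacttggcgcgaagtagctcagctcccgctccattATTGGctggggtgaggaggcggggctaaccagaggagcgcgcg

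In Cdk1 the TTTGAA letters began 72 and 16 bases before the start, and in Plk1 the TTTAAA letters began 113 and 53 bases before it. In Mcm5 an E2F match began 8 bases before the start, and in Mcm6 the first began 139 bases before it.

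The arrays did not share a common level, which bears on every value below. Over 31099 probe sets the median intensity was 56.5 (PICT), 34.3 (PCT) and 57.4 (OMCT). Values were taken as log2(intensity + 8.56), and each array's median log2 value was subtracted; these are the relative log2 differences given here. Without that step ("as deposited") each difference against PCT is larger by 0.60 for PICT and by 0.62 for OMCT, and PICT minus OMCT shifts by -0.02. Where 3 intensities follow each other they stand for PICT, PCT and OMCT, and where 3 relative differences do so they stand for PICT minus PCT, PICT minus OMCT and OMCT minus PCT. The counts below take a gene whose difference reached 1 (2-fold) in size and whose brighter signal was no lower than the median probe set of the array it came from. Between probe sets of the same gene the difference had an SD of 0.42 for PICT minus PCT, 0.38 for PICT minus OMCT and 0.39 for OMCT minus PCT, which gauges technical spread only. Control probe sets at the 3′ and 5′ ends of Hk1, whose ratio rises when RNA is broken, gave 2.80 for PCT, 1.58 for PICT and 1.97 for OMCT; the part of RNA quality in the differences from PCT was not tested.

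Most members lay above the median probe set on each array. The median member lay at percentile 75.3 of the probe sets in PICT, 81.7 in PCT and 80.3 in OMCT. Taking the brightest probe set of each gene raises these percentiles in part, and no such figure was taken over all genes. The members also include inhibitors of the cycle. Mki67, which encodes the Ki-67 protein of dividing cells, had intensities of 591 (PICT), 445 (PCT) and 555 (OMCT). Its relative differences were -0.20 for PICT minus PCT, 0.11 for PICT minus OMCT and -0.31 for OMCT minus PCT. The differences of Mki67 were smaller than the spread between probe sets of a gene. Top2a, the topoisomerase that untangles chromosomes, had intensities of 518, 521 and 476, with relative differences of -0.61, 0.14 and -0.75. Its other probe set gave -0.33, -0.03 and -0.30. Neither marker reached 2-fold in any comparison.

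**Figure D1:**
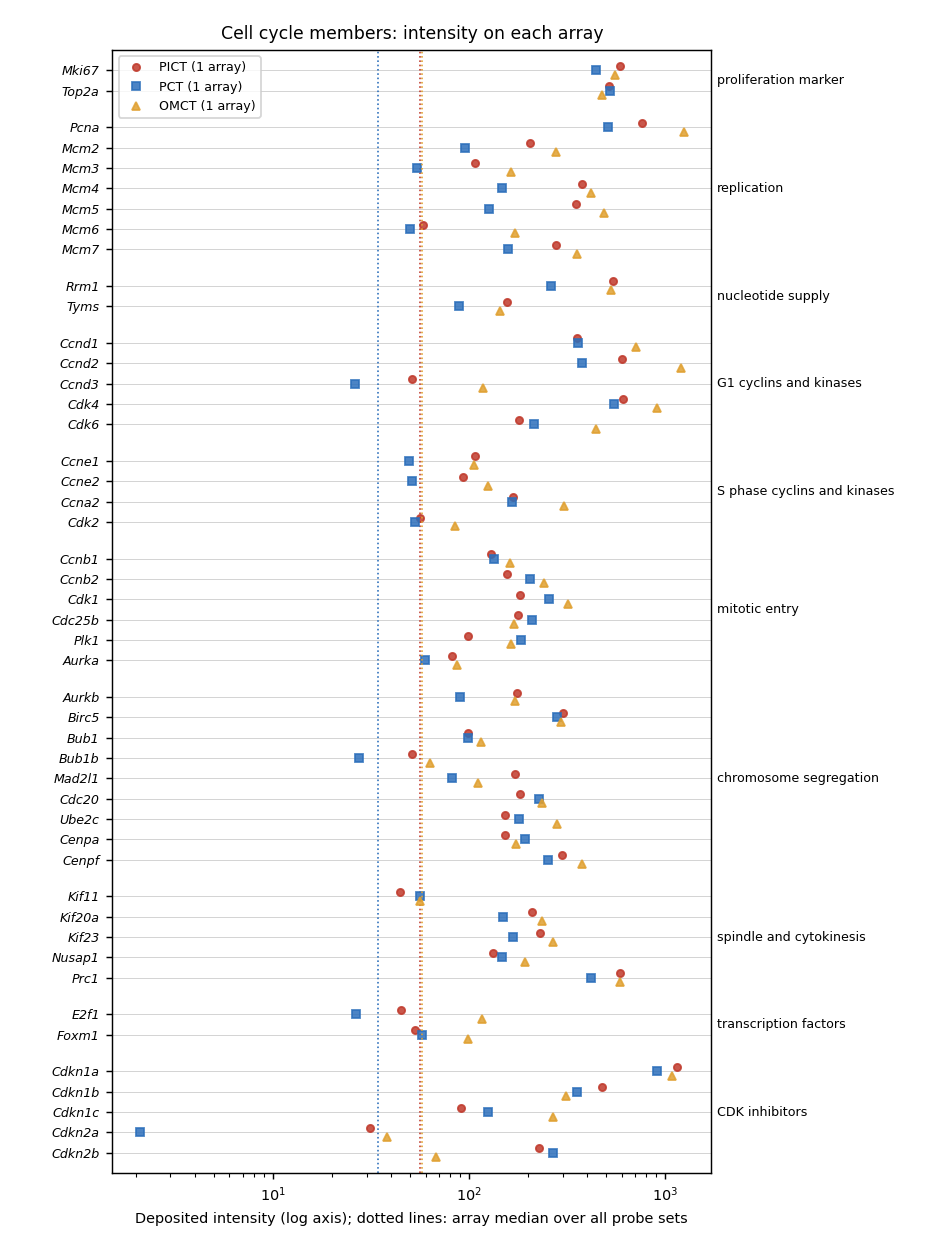
Deposited intensity (log axis) of the 47 measured members on the PICT, PCT and OMCT arrays, 1 point per array, grouped by role, with dotted lines at each array's median over all probe sets. OMCT was the highest array for 32 of the 47 members as deposited, and PCT the lowest for 29.

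Few members passed 2-fold, and the shares were set against all genes. For counts by sign, the share of all genes below 0 was 59.1% for PICT minus PCT, 53.7% for PICT minus OMCT and 55.9% for OMCT minus PCT (19.8%, 55.4% and 18.3% as deposited). Between PICT and PCT 0 of 47 members were higher (background 3.98% of 14217 genes) and 3 were lower (6.38%, background 3.37%). Between PICT and OMCT 1 was higher (2.13%, background 4.15%) and 5 were lower (10.6%, background 4.46%). Between OMCT and PCT 5 were higher (10.6%, background 5.66%) and 1 was lower (2.13%, background 4.81%). The filter on low values was passed by 43, 45 and 46 of the 47 members in these comparisons. In all, 10 members were counted in at least 1 comparison and 37 in none. The matching share over all genes was not taken, so this pooled count has no background. The comparisons share arrays: each array enters a pair of them.

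The median over the 47 members was -0.27 for PICT minus PCT, -0.31 for PICT minus OMCT and 0.02 for OMCT minus PCT, beside -0.13, -0.04 and -0.08 over all genes. As deposited the member medians were 0.33, -0.33 and 0.64, beside 0.47, -0.06 and 0.54 over all genes, and the counts against PCT became 4 higher and 0 lower for PICT and 13 higher and 1 lower for OMCT. PICT minus OMCT kept 1 higher and 5 lower. The backgrounds as deposited were 14.1% higher and 0.9% lower for PICT minus PCT, 3.98% higher and 4.64% lower for PICT minus OMCT, and 17.6% higher and 2.1% lower for OMCT minus PCT. The direction of the member median between PICT and PCT thus turned when the array medians were not subtracted. It lay below the median over all genes either way.

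What did not turn with the scaling was the distance between the helicase genes and the mitotic members. The 6 helicase genes Mcm2 to Mcm7 had a median of 0.36 for PICT minus PCT and 0.84 for OMCT minus PCT, while the 20 measured mitotic members had medians of -0.63 and -0.27. The distance between these medians was 0.99 for PICT minus PCT and 1.11 for OMCT minus PCT, and the same as deposited, since subtracting a constant from an array's log2 values cannot change it. Between PICT and OMCT it was -0.22. All 20 mitotic members lay below the lowest Mcm gene, at 0.49, in OMCT minus PCT. In PICT minus PCT 12 of the 20 lay below the lowest Mcm gene, Mcm6 at -0.41. In the wider lists given below, the medians of replication and mitotic genes lay closer together. For PICT minus PCT they were -0.11 for replication origins and forks and -0.47 for kinetochore, spindle and chromosome structure. For OMCT minus PCT they were 0.21 and -0.16. The distances above thus hold for Mcm2 to Mcm7 and not for replication genes at large. No test stands behind these distances, since genes are not replicates.

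**Figure D2:**
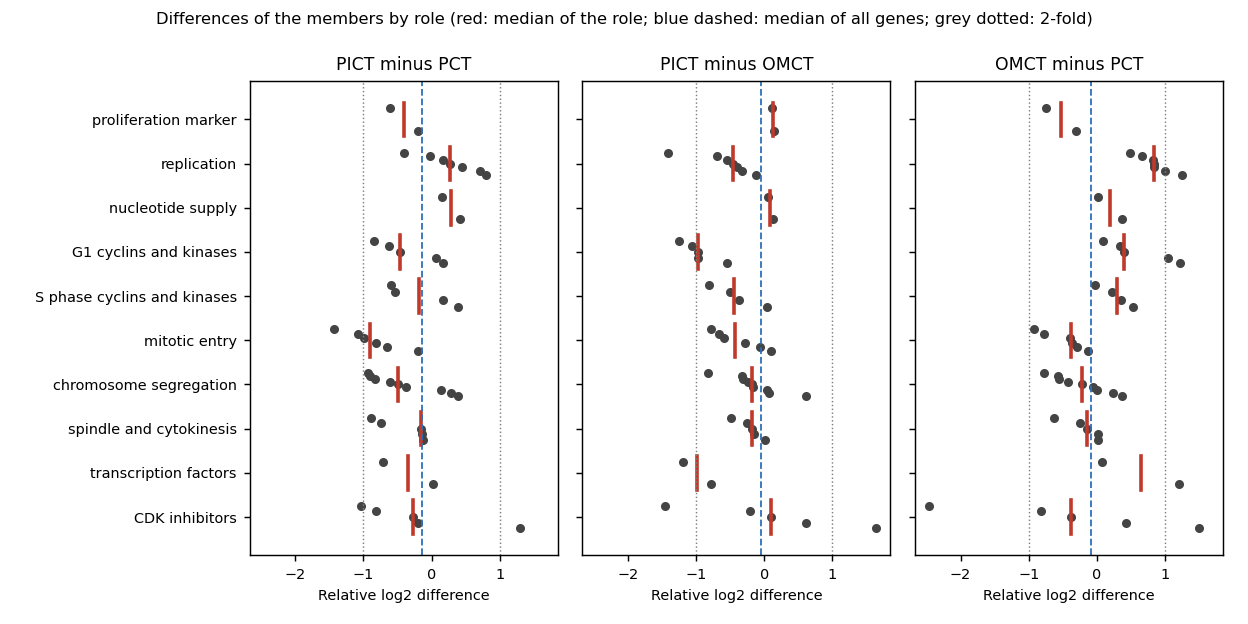
Relative log2 difference of each member (points) by role in the 3 comparisons, with the median of each role in red, the median of all genes as a blue dashed line and 2-fold as grey dotted lines. The median of the replication members was 0.27 for PICT minus PCT and 0.84 for OMCT minus PCT, to the right of the medians of the 3 mitotic roles, though single members overlap in PICT minus PCT. In PICT minus OMCT it was -0.46.

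The replicative helicase tended to be brighter in OMCT than around the tooth, and less clearly so in PICT. For PICT minus PCT the median of 0.36 was smaller than the spread between probe sets of a gene (SD 0.42). Relative to the array medians 0 of the 6 genes were at least 2-fold higher there (background 3.98%). By sign, 5 of the 6 genes were higher in PICT than in PCT (40.9% of all genes). In OMCT 6 of 6 were higher than in PCT (44.1% of all genes). As deposited 6 of 6 were higher in both, where only 19.8% and 18.3% of all genes were below 0. Mcm5, a helicase subunit, had intensities of 349 (PICT), 127 (PCT) and 488 (OMCT), and relative differences of 0.80 for PICT minus PCT, -0.46 for PICT minus OMCT and 1.25 for OMCT minus PCT. PCT was the low array. Mcm4, of the catalytic core of the ring, had 376, 147 and 418, with relative differences of 0.71, -0.13 and 0.84. Mcm2, at 206 (PICT), 95.4 (PCT) and 278 (OMCT), differed by 0.44, -0.40 and 0.84. Mcm2, Mcm3, Mcm4, Mcm5 and Mcm7 ran in the same order of arrays, PCT lowest and OMCT highest. Mcm3 had 107, 54.5 and 163, and Mcm7 had 276, 159 and 353. As deposited all 6 helicase genes were at least 2-fold higher in OMCT than in PCT (background 17.6%). In PICT 3 of them were so against PCT (background 14.1%).

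Mcm6 departed from the other subunits in PICT. Its intensity was 58.5 (PICT), 49.9 (PCT) and 172 (OMCT). The relative difference was -1.41 for PICT minus OMCT and 1.005, just past 2-fold, for OMCT minus PCT, so OMCT stood above both other arrays. It has 1 probe set with its symbol, and its name ends in the suffix that marks probes shared between transcripts of a gene. Pcna, the sliding clamp of the replication fork, read 760 (PICT), 508 (PCT) and 1249 (OMCT), with relative differences of -0.03, -0.69 and 0.66. Pcna was highest in OMCT. It was under 2-fold relative to the array medians, but past it as deposited, at 1.28 for OMCT minus PCT.

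The enzymes of nucleotide supply stayed under 2-fold relative to the array medians. Rrm1, the large subunit of ribonucleotide reductase, had intensities of 539 (PICT), 262 (PCT) and 528 (OMCT), and its relative difference was 0.41 for PICT minus PCT and 0.05 for PICT minus OMCT. As deposited Rrm1 was just past 2-fold for PICT minus PCT, at 1.02. Tyms, thymidylate synthase, differed by 0.15, 0.13 and 0.02. The probe sets shared by Rrm2 and Rrm2l1 had 561, 271 and 602, and 183, 160 and 471, and cannot be given to either gene.

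Among the D-type cyclins and their kinases, Ccnd2, Ccnd3 and Cdk6 passed 2-fold in a comparison with OMCT. By sign, all 5 genes of this role were lower in PICT than in OMCT (53.7% of all genes), with a median of -0.98. Of these, 2 were past 2-fold (background 4.46%). All 5 were higher in OMCT than in PCT (44.1% of all genes), with a median of 0.40 and 2 past 2-fold (background 5.66%). For OMCT minus PCT the differences of Ccnd1 (0.34) and Cdk4 (0.09) were smaller than the spread between probe sets of a gene. Ccnd2 (cyclin D2) had intensities of 603 (PICT), 377 (PCT) and 1210.5 (OMCT), with relative differences of 0.06, -0.98 and 1.04. Ccnd3 (cyclin D3) had 51.0, 26.3 and 117, with 0.17, -1.06 and 1.23. The Ccnd3 signal lay below the array median in PICT and PCT. Cdk6, a kinase that binds these cyclins, had 179, 214 and 446, with -0.85, -1.25 and 0.40.

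Ccnd1 (cyclin D1) was read by 3 probe sets. The brightest read 353 (PICT), 360 (PCT) and 711 (OMCT), a relative difference of -0.97 for PICT minus OMCT, just under 2-fold. The others gave -1.31 and -1.62, so the 3 probe sets had the same direction. Cdk4 had 606, 549 and 904, with -0.46, -0.55 and 0.09. E2f1, the transcription factor released by these kinases, read 45.1 (PICT), 26.4 (PCT) and 116 (OMCT), with relative differences of 0.02, -1.20 and 1.21. OMCT was the high array for E2f1, and the signals in PICT and PCT lay below their array medians.

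The cyclins of S phase stayed under 2-fold relative to the array medians, while Ccne2 passed it as deposited, at 1.16 for OMCT minus PCT. Ccna2 (cyclin A2) had intensities of 167 (PICT), 165 (PCT) and 303 (OMCT), with relative differences of -0.59, -0.81 and 0.22. Ccne1 and Ccne2, the cyclin E genes that partner Cdk2, differed by 0.39 and 0.16 for PICT minus PCT and by 0.36 and 0.53 for OMCT minus PCT. Cdk2 differed by -0.53, -0.51 and -0.02, while its dimmer probe set gave -0.66, -1.07 and 0.41.

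Genes of entry into mitosis leaned lower in PICT than in PCT. All 6 had a relative difference below 0 in that comparison (59.1% of all genes), with a median of -0.90. Of these, 2 were past 2-fold (background 3.37%). As deposited 5 of the 6 were below 0 as well (19.8% of all genes), with a median of -0.30. Plk1, the polo-like kinase of spindle assembly and mitotic exit, had intensities of 99.0 (PICT), 184 (PCT) and 163 (OMCT), with relative differences of -1.44, -0.66 and -0.78. PICT was the low array for Plk1 on either scale. Cdk1, the kinase that drives mitosis, read 181 (PICT), 255 (PCT) and 321 (OMCT), with relative differences of -1.07, -0.78 and -0.30. As deposited these were -0.47 for PICT minus PCT and 0.32 for OMCT minus PCT.

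The B-type cyclins, which activate Cdk1, lay on the same side. Ccnb2 had 155, 205 and 241, with -0.98 for PICT minus PCT, just under 2-fold. Ccnb1 had 129, 134 and 161 at its brightest probe set and 85.0, 172 and 121 at the other, so that PICT minus PCT was -0.65 at the first and -1.55 at the second. Cdc25b, a phosphatase that switches Cdk1 on, had 178, 208 and 168, with -0.82 for PICT minus PCT and -0.92 for OMCT minus PCT. Aurka, a centrosome kinase, had 81.6, 59.3 and 87.0 and differed by -0.19, -0.06 and -0.13.

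Genes of chromosome segregation and the spindle were mixed. Of 9 segregation members 0 passed 2-fold in any comparison, with medians of -0.49 for PICT minus PCT, -0.18 for PICT minus OMCT and -0.23 for OMCT minus PCT. The lowest in PICT minus PCT was Cenpa, the histone H3 variant of centromeres, at -0.94, followed by Cdc20, an activator of the anaphase-promoting complex, at -0.90, and Ube2c, that complex's conjugating enzyme, at -0.83. Aurkb, the kinase of the chromosomal passenger complex, was at 0.29 and its partner Birc5 (survivin) at -0.49. The checkpoint genes Bub1, Bub1b and Mad2l1 were at -0.61, 0.14 and 0.39, but the direction of Mad2l1 turned with the probe set, its others giving 0.14 and -0.62. Of 5 measured spindle and cytokinesis genes 0 passed 2-fold. Kif11, the motor that separates spindle poles, was at -0.88 and Nusap1 at -0.74, whereas Kif20a, Kif23 and Prc1 of the midzone lay between -0.16 and -0.13. Cenpf, a kinetochore protein, was at -0.37. The other probe set of Kif11 gave 0.30, the opposite sign, and that of Nusap1 gave -1.58, past 2-fold. Foxm1, the transcription factor of mitotic genes, had 52.9, 57.5 and 99.0 and differed by -0.71, -0.79 and 0.08.

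**Figure D3:**
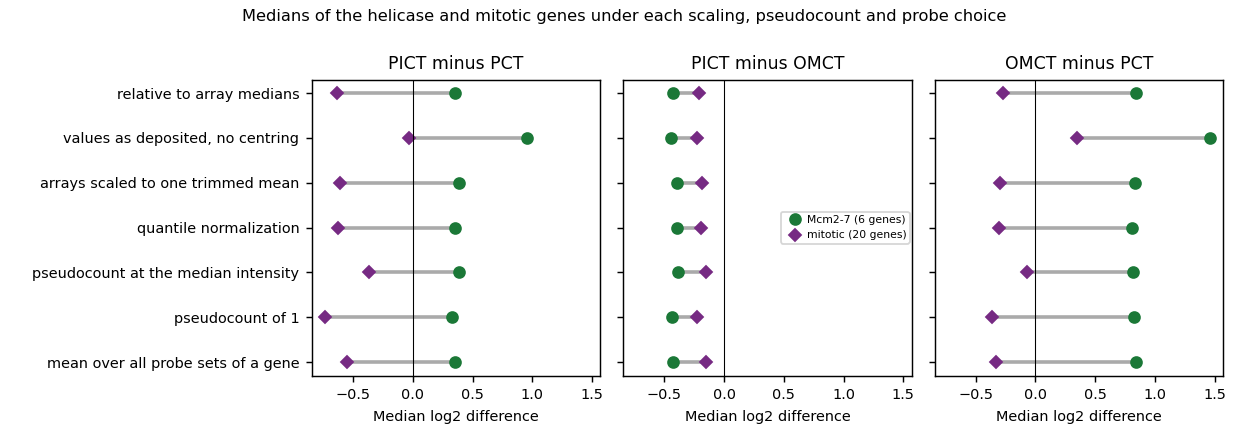
Median log2 difference of Mcm2 to Mcm7 (green, 6 genes) and of the mitotic members (purple, 20 genes) in each comparison under the scalings, pseudocounts and probe choices tried. The distance between them stayed between 0.76 and 1.06 for PICT minus PCT and between 0.89 and 1.19 for OMCT minus PCT, while both medians shifted right as deposited.

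The inhibitors of cyclin-dependent kinases differed among themselves. Apart from Cdkn2a, which was too dim in PCT to compare, they ran from -1.03 to -0.20 for PICT minus PCT, from -1.46 to 1.65 for PICT minus OMCT and from -2.47 to 0.43 for OMCT minus PCT. Cdkn2b (p15, an inhibitor of Cdk4 and Cdk6 induced by TGF-beta) had intensities of 228 (PICT), 266 (PCT) and 68.1 (OMCT). OMCT was the low array. Its relative difference was -0.82 for PICT minus PCT, 1.65 for PICT minus OMCT and -2.47 for OMCT minus PCT, and -1.84 as deposited in the last. Over the 3 comparisons it had the largest relative difference of any measured member, and in both comparisons with OMCT its sign was opposite to that of Ccnd2, Ccnd3, Cdk6 and E2f1.

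Cdkn1c (p57, an inhibitor of the Cip/Kip family) read 90.6 (PICT), 125 (PCT) and 268 (OMCT), with relative differences of -1.03, -1.46 and 0.43. PICT was the low array for Cdkn1c. Cdkn1a (p21, a target of p53) had intensities of 1144, 910 and 1077 and differences of -0.27, 0.11 and -0.38. Its dimmer probe set, with 224, 278 and 121, gave -0.90, 0.87 and -1.77. The probe sets of Cdkn1a had the same direction but not the same size. Cdkn1b (p27) had 473, 356 and 310, with -0.20, 0.62 and -0.82. Cdkn2a, which encodes p16 and p19Arf, read 31.2 (PICT), 2.09 (PCT) and 38.0 (OMCT). It was below the array median everywhere, and its PCT signal was under the highest negative control (5.71). It was therefore not counted, and its relative differences of 1.30 for PICT minus PCT and 1.50 for OMCT minus PCT are not exact.

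Probe sets of the same member did not always give the same sign. Among the 13 members read more than once, the sign was shared by every probe set in 10 for PICT minus PCT, 7 for PICT minus OMCT and 9 for OMCT minus PCT. The widest range was that of Cdc20, whose 5 probe sets spanned 3.21 in PICT minus PCT. Its second brightest read 58.2 (PICT), 262 (PCT) and 123 (OMCT), a difference of -2.62, while a dim one of 36.0, 10.9 and 16.7 gave 0.60. The suffixes of both mark probes that can read other transcripts.

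**Figure D4:**
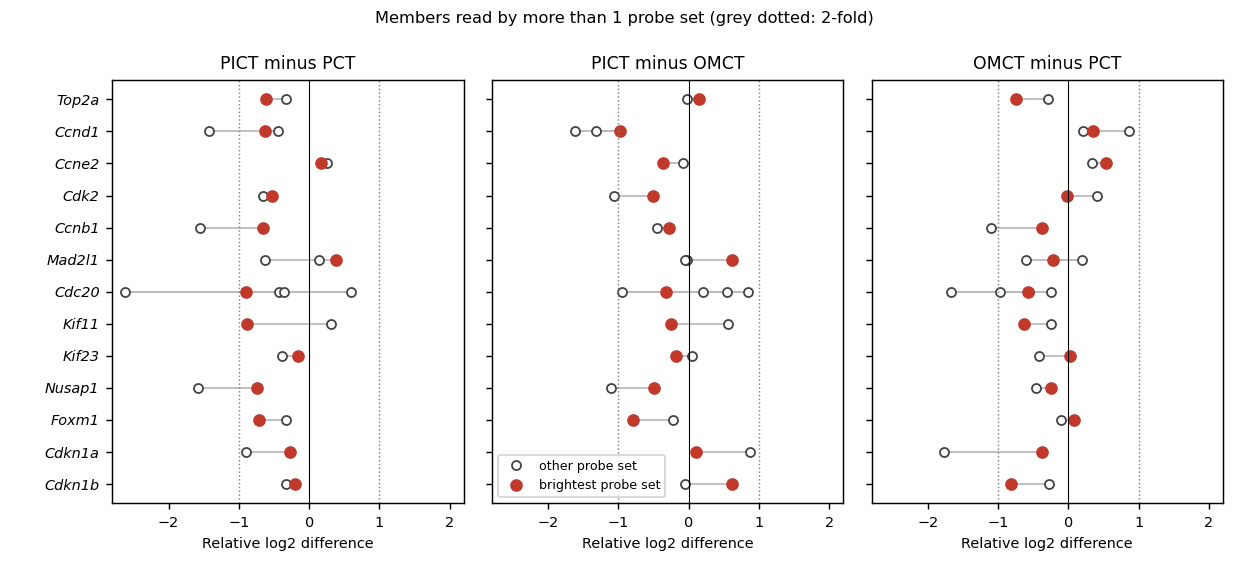
Relative log2 difference of every probe set of the 13 members with more than 1, with the brightest in red and the others open, and 2-fold as grey dotted lines. Cdc20 spans 3.21 in PICT minus PCT, from -2.62 to 0.60, while the 3 probe sets of Ccnd1 all lie below 0 in PICT minus OMCT.

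Other genes of the same machinery were taken from lists that exclude the members. Of 36 measured genes of replication origins and forks, 2 passed 2-fold for PICT minus PCT, both lower (5.56%, background 3.37%, median -0.11). For PICT minus OMCT 1 was lower (2.78%, background 4.46%, median -0.29). For OMCT minus PCT 1 was higher (2.78%, background 5.66%, median 0.21). As deposited the calls against PCT were all higher, 5 genes for PICT and 9 for OMCT with 0 lower (backgrounds 14.1% and 17.6%), and the medians were 0.49, -0.31 and 0.83. Gmnn (geminin, which blocks relicensing of origins) read 57.5 (PICT), 86.6 (PCT) and 164 (OMCT), a relative difference of -1.13 for PICT minus PCT and -1.37 for PICT minus OMCT. Pold1, the catalytic subunit of a replicative polymerase, was at -1.02 for PICT minus PCT, and Rpa1, which coats single-stranded DNA, at 1.35 for OMCT minus PCT. Nucleotide supply and chromatin assembly, 11 measured genes, had medians of -0.11, -0.43 and 0.53 with 0 genes past 2-fold. As deposited the medians were 0.50, -0.45 and 1.15. Then 3 genes were higher for PICT minus PCT (background 14.1%) and 6 for OMCT minus PCT (background 17.6%).

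Of 43 measured genes of the kinetochore, spindle and chromosome structure, 8 were lower in PICT than in PCT (18.6%, background 3.37%) and 0 higher (median -0.47). In PICT 1 was lower than in OMCT (2.33%, background 4.46%, median -0.19). In OMCT 4 were lower than in PCT (9.30%, background 4.81%) and 0 higher (median -0.16). Dlgap5, a spindle protein, read 72.3 (PICT), 161 (PCT) and 105 (OMCT), with -1.67 for PICT minus PCT and -1.20 for OMCT minus PCT. Mad1l1, a checkpoint partner of Mad2l1, was at -1.41 and Fzr1, an activator of the anaphase-promoting complex, at -1.23 for PICT minus PCT. Fzr1 was at -1.35 and Kifc1, a minus-end motor, at -1.05 for OMCT minus PCT. Cenpm, a centromere protein, was at -1.24 for PICT minus OMCT. As deposited the medians of this list were 0.14, -0.21 and 0.46. The calls then became 4 genes higher (background 14.1%) and 1, Dlgap5, lower (background 0.9%) for PICT minus PCT. For OMCT minus PCT they were 5 higher (background 17.6%) and 0 lower (background 2.1%). Both higher counts were smaller shares than the background.

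The medians of the regulators lay between -0.24 and 0.06 relative to the array medians; as deposited those against PCT ranged from 0.38 to 0.64. The Rb, E2F and DREAM list had medians of 0.04, 0.06 and -0.07 over 18 genes. Lin54 at 1.12 and Lin9 at 1.03, both DREAM or MuvB subunits, were higher in PICT than in PCT (11.1% of the list, background 3.98%). The checkpoint and p53 target list had medians of 0.01, 0.00 and 0.01 over 16 genes. Gadd45a, a stress-induced growth arrest gene, was its only gene past 2-fold relative to the array medians, at -1.27 for OMCT minus PCT (6.25%, background 4.81%). As deposited Gadd45a was at -0.64 and not counted. On that scale 3 genes of the list were higher for PICT minus PCT (background 14.1%) and 2 for OMCT minus PCT (background 17.6%). The 15 other cyclins, kinases and inhibitors had medians of -0.08, 0.02 and -0.24. For OMCT minus PCT 12 of the 15 were below 0 (55.9% of all genes). As deposited the sign turned, with 14 above 0 and 1 below (18.3% of all genes below). Relative to the array medians 1 of the 15 passed 2-fold, the antiproliferative Tob1, at 1.12 for PICT minus OMCT (6.67%, background 4.15%).

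Markers of cell types moved beside these differences, and their part in them was not tested. In bulk tissue, fewer cells of a type and less RNA per cell cannot be told apart. The basal keratinocyte list (8 of 8 genes measured) had a median of -0.86 for PICT minus PCT, -0.22 for PICT minus OMCT and -0.79 for OMCT minus PCT, with summed intensities of 23376, 27196 and 25116 in PICT, PCT and OMCT. Epithelial markers were thus bright in samples labelled connective tissue. Upper epithelial layers (8 of 9 measured) summed to 22084, 18841 and 2487, and all 8 were at least 2-fold lower in OMCT than in PICT and PCT. Fibroblast markers (7 of 7) summed to 27584, 21217 and 42660, with a median of 1.27 for OMCT minus PCT and -0.65 for PICT minus OMCT. Macrophage markers (7 of 7) summed to 3543, 293 and 4312, and had medians of 2.38 for PICT minus PCT and 2.96 for OMCT minus PCT. Endothelial markers (5 of 6) summed to 1661, 1733 and 2702, with medians of -1.16 for PICT minus PCT, -1.31 for PICT minus OMCT and 0.17 for OMCT minus PCT, and 3 of 5 genes were lower in PICT in each of the first pair. T and B lymphocyte markers (6 of 8) summed to 247, 73.2 and 235, with 1 or 2 genes per array not above the highest negative control. No marker was listed at 0.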

How the data were processed

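RNA from 3 microdissected tissues was read on 1 rat GeneChip array each. Per the labels' protocols, RNeasy columns were used for the RNA and the GeneChip 3'IVT Express kit for amplification and biotin labelling. The table deposited by the authors gives a linear intensity for each probe set; the probe summary and array scaling behind it are not given in the sources used here. Gene names came from the platform annotation of 2016, in which 436 probe sets carry several symbols and were left out; the gene IDs of all 47 measured members matched RefSeq (GRCr8).

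Values were log2(intensity + 8.56), the pseudocount being the 20th percentile of all values, and each array's median was subtracted. This understates differences of dim genes. Negative controls were the 3 TrpnX probe sets. Calculations used Python 3.11.15, numpy 2.4.6 and pandas 2.3.3. The rule was tried on simulated data with planted changes well past 2-fold, in bright genes only and with little noise. That trial does not bear on calls near 2-fold or on dim genes. Alternatives were other scalings, pseudocounts, filters and probe choices. Members and lists were chosen with earlier results of these data known. Members past 2-fold and, always, 8 set genes (Mki67, Top2a, Pcna, Cdk1, Ccnd1, Cdkn1a, Cdkn1b and Cdkn2a) were to be named with all values, as were up to 3 genes per related list and comparison; further members were named with values already known. The grouping of members by role and the distance between Mcm and mitotic medians were set after the files were opened.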

Additional observations from a re-analysis of the deposited data

How the results depend on the processing

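The member median for PICT minus PCT kept its sign with arrays scaled to a common trimmed mean (-0.29) and with quantile normalization (-0.23). It turned when the array medians were not subtracted. As deposited, it was 0.33 for PICT minus PCT (against -0.27) and 0.64 for OMCT minus PCT (against 0.02), and the counts were 4 members higher and 0 lower for PICT minus PCT and 13 higher for OMCT minus PCT. The OMCT minus PCT median, near 0, turned to -0.0053 with quantile normalization and to -0.058 with a pseudocount of 1. With a pseudocount at the median intensity, 0 members were lower for PICT minus PCT, 3 were lower for PICT minus OMCT and 2 were higher for OMCT minus PCT; Ccnd3 and E2f1 were lost in both and Mcm6 in the second. With a pseudocount of 1, 7 were lower for PICT minus PCT and 2 for OMCT minus PCT. With no filter on dim probe sets, 1 member, Cdkn2a, was higher in PICT than in PCT. With both arrays required to lie at or above their medians, 3 members were lower for PICT minus OMCT and 3 higher for OMCT minus PCT, Ccnd3 and E2f1 being lost from both. For OMCT minus PCT Mcm6 was also lost with quantile normalization and Ccnd2 with a pseudocount of 1. With the mean over all probe sets of a gene, 5 were lower for PICT minus PCT and 2 for OMCT minus PCT. Calls over all genes were not counted under these pseudocounts, filters and probe choices, nor with the trimmed mean or quantile normalization. The member counts there thus have no background, and their changes cannot be read as particular to the members. As deposited and with the larger pseudocount, Cdk1, Plk1 and Cdkn1c were no longer counted for PICT minus PCT. Cdkn2b was counted against OMCT, in both comparisons, under all 8 alternatives. The distance between Mcm and mitotic medians, tried under the same alternatives after the data were seen, ranged from 0.76 to 1.06 for PICT minus PCT, -0.27 to -0.20 for PICT minus OMCT and 0.89 to 1.19 for OMCT minus PCT. The filters and the as-deposited scale cannot change this distance, so only the other alternatives bear on it. No library could be left out and no paired analysis was possible because each tissue has 1 array.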
